A study of Bos taurus with 21 samples.

Results

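ZNF genes are the bovine genes whose symbol starts with ZNF followed by a digit, a naming class that takes in a large part of the zinc finger proteins. The count tables held 179 of them among 13570 genes. The members were chosen by symbol alone, and ZNFX1 was left out because no digit follows its prefix. The choice of the family was not free of the data, since the study had already reported its member ZNF642 as falling with milk yield in these cows. The study sequenced RNA of milk somatic cells from 21 Holstein cows, 9 of the high yielding group (HY) and 12 of the low yielding group (LY), all under the same sampling by hand after the evening milking. The trait was a milk yield value derived from the breeding record, for which no unit is given, with values of 181 to 468 in the HY cows and -404 to 86.9 in the LY cows. Lactation period was 41 to 268 days in HY and 52 to 270 days in LY, parity was 2 to 4 in both groups, and no age is given. The question was whether the family fell with milk yield as its member ZNF642 did, and how it moved with lactation period, parity and the share of casein RNA.

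Zinc finger proteins of the C2H2 kind bind DNA through tandem fingers, each reading a few bases. Many of them carry a KRAB domain, which recruits TRIM28 and, through it, the histone methyltransferase SETDB1 and other silencing factors, and many such proteins bind transposable elements. Other proteins with a ZNF name are not repressors at all: ZNF207 works at the mitotic spindle, ZNF622 in the maturation of the large ribosomal subunit and ZNF326 in splicing during elongation. Milk somatic cells are a mixture of leukocytes and of epithelial cells shed from the mammary gland, the latter carrying the casein mRNAs. In such a bulk sample, fewer cells of a type and less RNA per cell cannot be told apart.

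Of the 179 members, 175 had a count in at least 1 cow and were tested, while ZNF215, ZNF280A, ZNF483 and ZNF804B had none. In all 21 cows 117 members had a count, and 83 had at least 10 counts in every cow, or 46.4% against 52.7% of all genes. Together the members held between 0.0751% of the counts on genes in HY cow 3262 and 0.379% in LY cow 3272. The largest read numbers belonged to ZNF638, ZNF207, ZNF292, ZNF706 and ZNF326, with a mean of 200, 186, 113, 86.7 and 64.4 CPM (counts scaled to a common library total, with the TMM factors of edgeR). Counts grow with transcript length, and no lengths were used here, so these values do not rank the genes by level. At the other end, ZNF474, ZNF385B and ZNF423 never passed 4 counts in a cow.

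A cow's reads counted on genes numbered 7878557 to 28541904. The caseins CSN1S1, CSN1S2, CSN2 and CSN3 took 0.0876% to 44.2% of them. The 10 epithelial markers summed to between 925 and 1.06e+06 CPM, and neutrophil, macrophage and T cell markers were counted in every cow, so both compartments were present. TMM-scaled values can sum to more than the plain CPM total where the factor is low. Some libraries stood apart. LY cow 2893 had a count for 9056 genes and 124 members, the fewest of all, against 9505 to 11269 genes and 152 to 172 members in the other cows. HY cows 3262 and 3280 had TMM factors of 0.460 and 0.498, under the 0.749 to 1.48 of the others, and casein shares of 44.2% and 33.6%. The study's mapping rates also split the cows into 16 of lower and 5 of higher rate.

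Few of the ZNF genes fell with milk yield past the threshold, and slopes of both signs were about as common over the 175 members tested. Expression was regressed on the trait for every gene as log2(CPM + 0.25), and r is Pearson's correlation over the 21 cows. At an unadjusted p under 0.05, 4 of 175 members fell with milk yield, or 2.29% against 1.63% of the 12333 genes tested. These 4 include ZNF642, which prompted the question and which the study had already reported in these same cows. Another 2 members rose, or 1.14% against 0.859% of all genes. After Benjamini-Hochberg adjustment over all genes 0 members passed, the lowest adjusted p being 0.9999. The quasi-likelihood test of edgeR with milk yield as a number also called 0 after adjustment. It gave 6 members lower and 0 higher at an unadjusted p under 0.05. The share of all genes in that fit is not given, so neither an excess nor a lack of members can be read from this count.

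The slope was negative for 94 members, or 53.7%, beside 50.3% of all genes, and the median r of the members was -0.021 beside -0.0018. This share went from 48.6% without the 2 cows of low TMM factor to 69.7% without LY cow 2893, where it was 58.0% over all genes. It was under 50% also with edgeR, at 49.1%, and in the 16 cows of lower mapping rate, at 49.7%. For these settings, and without the 2 cows of low TMM factor, the share over all genes is not given. The gap between members and all genes cannot be read there. Among the 83 members with at least 10 counts in every cow, r had a median of -0.057 and was negative for 51, or 61.4%, whereas 44.9% of the 7146 genes above the same minimum had a negative r. When the scaling and the fit were run on these genes alone, 3 members fell (3.61% against 0.784% of all genes), again with ZNF642 among them. In that fit 0 rose (against 0.924%), and none passed adjustment. A negative slope was found for 66.3% of members against 50.2% of all genes. The middle 50% of these members lay between -0.198 and 0.092.

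**Figure D1:**
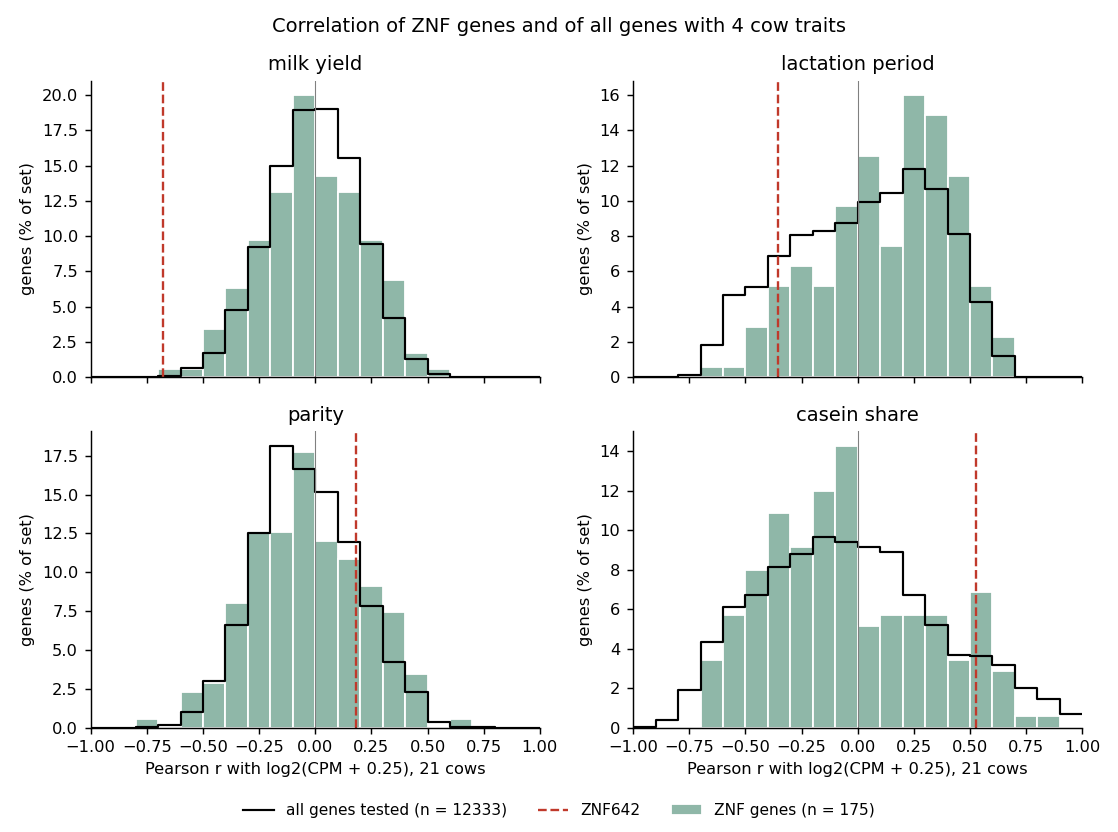
Distribution of Pearson's r between log2(CPM + 0.25) and milk yield, lactation period, parity and casein share over 21 cows, as the percent of the 175 ZNF genes (bars) and of all 12333 genes tested (line) in steps of r. The dashed line marks ZNF642, at the left end of the ZNF genes for milk yield (r = -0.677) and on the right side for casein share (r = 0.527).

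ZNF642, listed as ZFP69 in the current RefSeq gene table, encodes a KRAB zinc finger protein. It was singled out by the study for its relation to milk yield in these same cows, so its values are a description and not an independent test. Its level was 5.72, 7.46 and 13.95 CPM (lowest, median and highest) in the 9 HY cows and 8.81, 10.7 and 18.4 CPM in the 12 LY cows. The groups overlapped between 8.81 and 13.95 CPM, the 2 cows of highest milk yield had the lowest levels and LY cow 2893 the highest. The slope was -0.12 ± 0.03 (SE) on the log2 scale per 100 units of milk yield, with an unadjusted p of 0.000753 and an adjusted p of 0.9999. Pearson's r was -0.677 (permutation p = 0.00113) and Spearman's rho -0.664 (permutation p = 0.00162). Leaving out the 2 cows most distant from the median level gave r = -0.551, in the 16 cows of lower mapping rate -0.751, and it was -0.648 in HY and -0.497 in LY.

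The other 3 members that fell were ZNF277, ZNF197 and ZNF187. ZNF187 goes by ZSCAN26 in the RefSeq table, a protein with a SCAN domain for pairing with its like. ZNF277 was at 11, 16.6 and 29.5 CPM in HY and at 15.4, 22.3 and 44.3 CPM in LY. ZNF197 was at 2.96, 4.50 and 7.15 CPM in HY and at 2.28, 6.94 and 14.4 CPM in LY. ZNF187 was at 0.528, 1.5 and 3.63 CPM in HY and at 1.71, 2.81 and 8.47 CPM in LY. The groups overlapped for all 3 genes, and LY cow 2893 held the highest value of each. Pearson's r was -0.525, -0.479 and -0.487, with permutation p of 0.013, 0.0278 and 0.0235, and Spearman's rho was -0.477, -0.413 and -0.399, with permutation p of 0.0301, 0.0641 and 0.074. Without LY cow 2893 none of the 3 passed, at p of 0.0504, 0.106 and 0.0914. Within HY the sign of r turned for ZNF277 (0.068) and ZNF187 (0.591), while in LY r was -0.521 and -0.537.

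The members that rose were ZNF502 and ZNF410. ZNF410 binds the promoter of CHD4, the helicase of the NuRD repressor complex. It was at 51.0, 60.0 and 73.1 CPM in HY and at 43.0, 54.5 and 65.0 CPM in LY, with r = 0.482 (permutation p = 0.0269) and rho = 0.504 (permutation p = 0.021). Its range was narrow in both groups, and the relation was seen in HY (r = 0.502) but not in LY (r = -0.00032), a difference that was not tested. The call was lost without HY cow 3057, 3064 or 3280, with p up to 0.0964. CHD4 itself had r = 0.422 with milk yield (p = 0.0568). ZNF502 was at 0.634, 2.27 and 5.89 CPM in HY and at 0, 1.47 and 2.72 CPM in LY, with r = 0.517 (permutation p = 0.0139) and rho = 0.455 (permutation p = 0.0393). Its only cow at 0 was LY cow 2893, and without that cow p was 0.0772.

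**Figure D2:**
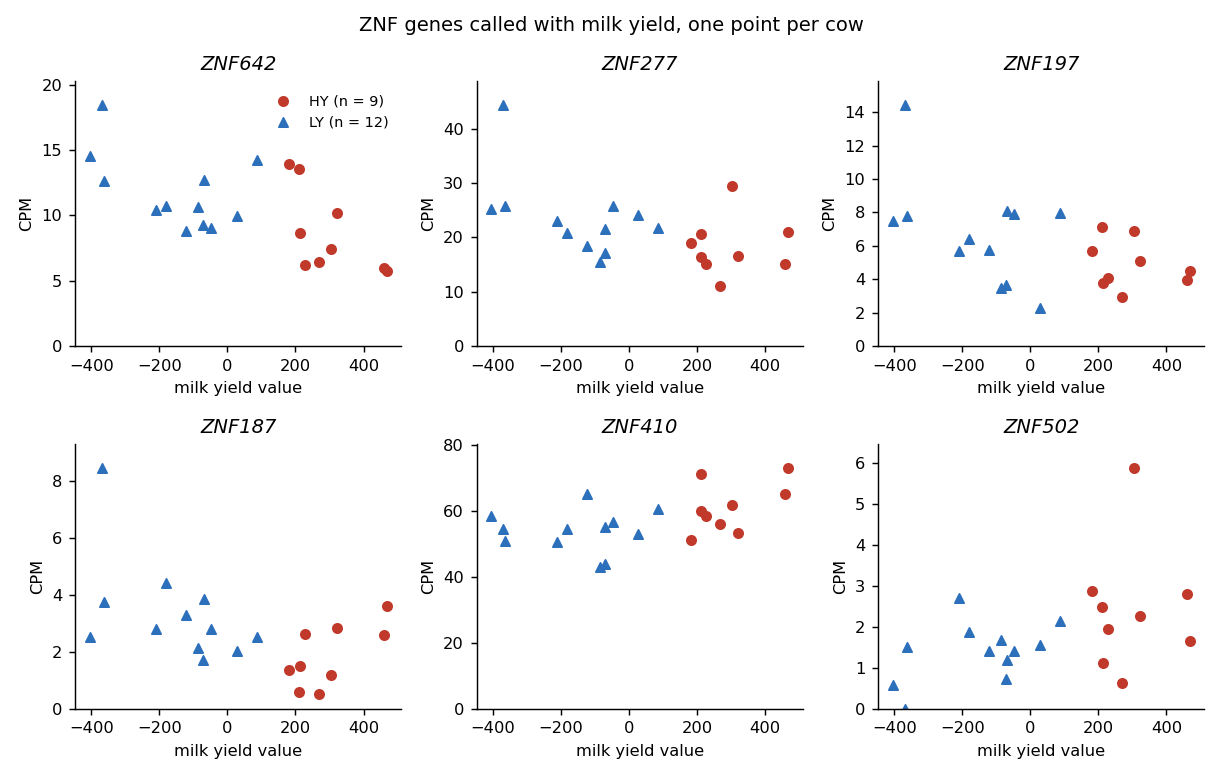
CPM (TMM-scaled, axes from 0) against the milk yield value for the 6 ZNF genes with an unadjusted p under 0.05, 1 point per cow, 9 HY (circles) and 12 LY (triangles). ZNF642 ran down to 5.72 CPM at the highest yield, and the single high LY point near a yield of -369 in ZNF277, ZNF197 and ZNF187 is cow 2893.

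With parity and lactation period in the model, 6 members fell with milk yield (3.43% against 1.96% of all genes) and 2 rose (1.14% against 1.05%). The members that fell were ZNF642, ZNF470, ZNF226, ZNF187, ZNF277 and ZNF567, and those that rose were again ZNF502 and ZNF410. ZNF642 had a slope of -0.11 ± 0.03 (SE) per 100 units of milk yield and p = 0.00286, and 0 members passed adjustment (lowest adjusted p 0.9997). This count of 8 dropped to 2 without LY cow 2893, to 3 without LY cow 3407 and to 5 without HY cow 2920, LY cow 3135 or LY cow 3264. The simple regression's count of 6 dropped to 3 without LY cow 2893 and came to 13, 4 lower and 9 higher, without HY cows 3262 and 3280. Without these 2 cows 3.75% of all genes fell and 3.27% rose. For the fits without 1 cow the share of all genes is not given, so a drop there cannot be told from a general loss of calls.

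Between the groups themselves, edgeR's quasi-likelihood test gave 3 members lower in HY at an unadjusted p under 0.05 (1.71% against 3.19% of all genes) and 0 higher (against 1.52%), with 0 after adjustment. DESeq2 gave 5 lower and 0 higher. The share of all genes is not given for DESeq2, so neither a shift of the family nor its absence can be read from this count. ZNF226, in a cluster with ZNF45 and ZNF227, was at 4.59, 11.8 and 19.7 CPM in HY and at 7.48, 18.7 and 70.4 CPM in LY. HY cow 3262 was lowest and LY cow 7598 highest, and the groups overlapped. The log2 fold change of HY over LY was -1.01 (p = 0.00939, adjusted p = 0.9986). ZNF187 had -0.82 (p = 0.0418) and lost the call without any of 9 cows, LY cows 2864, 2893, 3264 and 3407 and HY cows 3014, 3075, 3235, 3262 and 3280. ZNF385B was at 0 in all 9 HY cows and reached 4 counts in 1 LY cow, so no fold is given, and leaving out any of 14 cows ended its call. The median log2 fold change over the members was -0.11, beside 0.02 over all genes, and 62.9% of members against 47.3% of all genes were lower in HY. The count was 1 without HY cow 3014 or LY cow 3407, 5 without HY cow 3235 and 7 without LY cow 7643. The share of all genes in these fits is not given, so such changes cannot be told from a general one.

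To see whether other members moved as ZNF642 did, its level was correlated with that of the 82 other members with at least 10 counts in every cow. The r values had a median of 0.074 and ran from -0.716 to 0.644, and 54.9% were positive. Over the 7145 other genes above this minimum the median was -0.048 and 44.3% were positive. The members most like ZNF642 were ZNF197 (r = 0.644), ZNF277 (0.570) and ZNF238 (0.566), the last a BTB-domain repressor now called ZBTB18. The members most opposed were ZNF655 (-0.716), ZNF395 (-0.639) and ZNF419 (-0.504). These 6 genes were chosen after their values were seen, and all of the values share the same 21 libraries. ZNF642, ZNF197, ZNF277 and ZNF238 each had a positive r with casein share (0.527, 0.436, 0.496 and 0.618), and ZNF655, ZNF395 and ZNF419 a negative one.

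The members did not move as 1 block. Over the 3403 pairs of the 83 members, the median r was 0.046, with 7.90% of pairs above 0.6 and 5.79% under -0.6. Over all pairs of the 7146 genes the median was 0.0030, with 9.23% above 0.6 and 7.64% under -0.6. In the ARS-UCD2.0 gene table, used for gene order only, 47 members lay beside another member, in 27 side-by-side pairs. In the 6 of these pairs with at least 10 counts in every cow for both genes, r had a median of 0.101 and ran from -0.250 for ZNF45 and ZNF226 to 0.338 for ZNF667 and ZNF583. Members beside another member and members standing alone had negative slopes with milk yield in 52.2% of 46 and 54.7% of 128 genes. Zinc finger paralogs in such clusters share sequence, and reads split between them or dropped as non-unique would make their counts uncertain, which was not tested.

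For a level of the whole family in each cow, the z scores of log2 expression were summarised by their median over the 83 members, as a description with no test. This median lay between -0.532 and 0.354 in the HY cows and between -0.705 and 0.340 in the LY cows, with group medians of -0.028 and 0.139. The groups overlapped over nearly the whole range. Its r with milk yield was -0.252 (rho = -0.266), with lactation period 0.172 (0.177), with parity 0.253 (0.167) and with casein share 0.212 (0.049). Over the 175 members tested, the same median had r of -0.071 with milk yield, 0.394 with lactation period, -0.030 with parity and -0.144 with casein share, the last 2 of opposite sign, and 0.796 with the number of genes detected and 0.793 with the TMM factor. The summed CPM of all members was 1631 to 2652 in HY and 1695 to 2795 in LY. Its r was 0.054 with milk yield (rho = 0.156), 0.531 with lactation period (0.558), 0.310 with parity (0.338) and 0.160 with casein share (0.032).

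**Figure D3:**
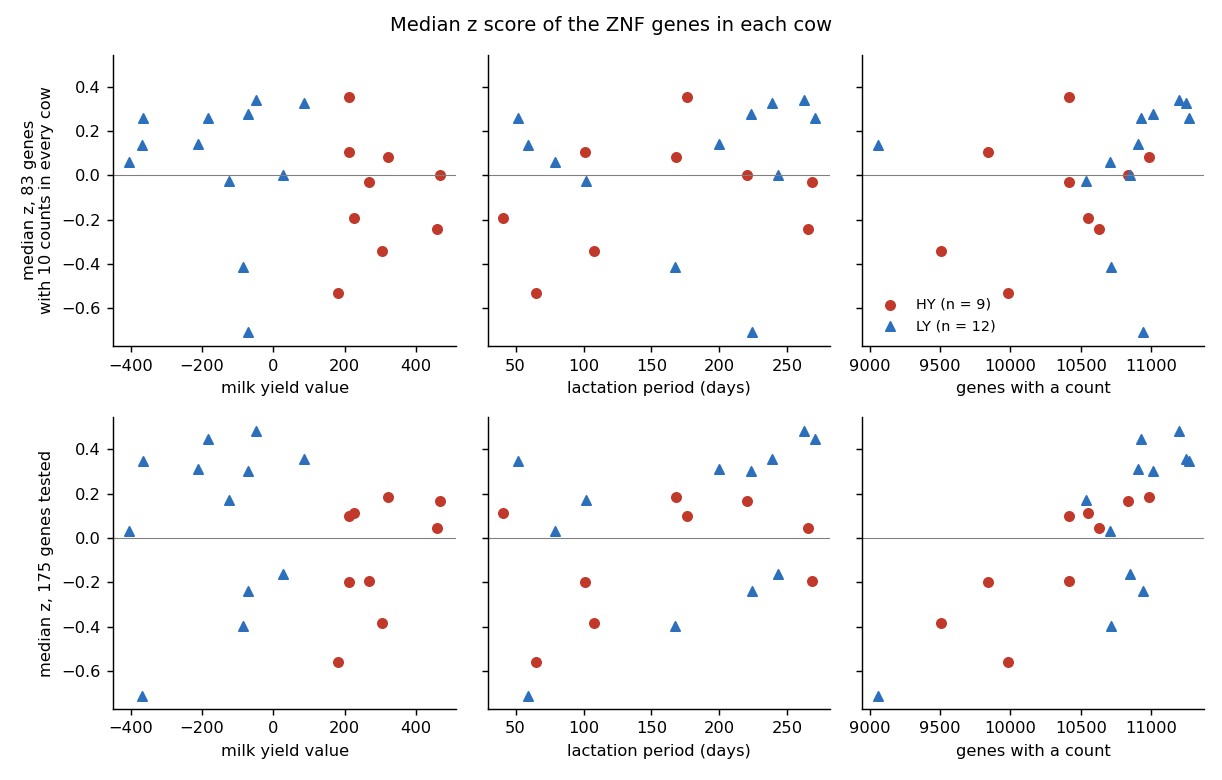
Median z score of the ZNF genes in each cow (HY circles, n = 9; LY triangles, n = 12) against milk yield, lactation period in days and the number of genes with a count, for the 83 members with at least 10 counts in every cow (upper row) and the 175 members tested (lower row). The lower row rises with the number of genes detected (r = 0.796), while r with milk yield was -0.252 in the upper and -0.071 in the lower row.

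Members rose with lactation period more often than they fell. The lactation periods lay in 2 stretches, 8 early cows (4 HY and 4 LY) of 41 to 108 days and 13 late cows (5 HY and 8 LY) of 167 to 270 days. At an unadjusted p under 0.05, 28 members rose, or 16% against 10.5% of all genes, and 7 fell, or 4.0% against 9.88%. After adjustment 0 members passed (lowest adjusted p 0.125), and edgeR gave 11 higher (6.29% against 9.58% of all genes) and 9 lower (5.14% against 12.8%) at an unadjusted p under 0.05, with a lowest adjusted p of 0.0676. The slope was negative for 30.3% of members beside 43.7% of all genes, and this share stayed between 26.9% and 36.1% for the members under the other scalings, the count minimum and edgeR. Only 11 of the 28 that rose had at least 10 counts in every cow, against 6 of the 7 that fell. Among the 83 members with this minimum, r in the main fit was negative for 41.0%, beside 51.4% of the 7146 genes with it. The median r was 0.093 for these members and -0.020 for these genes. In place of 35, the total called was 17 (2 lower and 15 higher) without HY cows 3262 and 3280, 19 without LY cow 2893 and 22 without HY cow 3262. In the first of these sets 5.27% of all genes rose and 5.28% fell.

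The number of genes detected rose with lactation period (r = 0.506, rho = 0.365), as did the TMM factor (r = 0.361, rho = 0.219). All 28 members that rose had a positive r with the number of genes detected (median 0.627), and all 7 that fell had a negative one (median -0.625). With the mean z score of the T cell markers, all 28 had a positive r (median 0.408), and with that of the epithelial markers 26 of 28 had a negative one (median -0.359). Of all 175 members tested, r was positive for 128 with genes detected, for 126 with the T cell and for 57 with the epithelial markers. The T cell mean itself had r of 0.409 with lactation period and 0.712 with genes detected. As the 28 and the 7 were chosen by lactation period, that choice partly set these signs. T cell markers summed to 47.1 to 509 CPM in the early cows and to 116 to 1222 CPM in the late cows, with no T cell marker in the files at 0 throughout. The part of detection and of cell makeup in these relations was not tested. With casein share as a covariate, an alternative chosen after the data were seen, the counts were again 28 and 7. Casein share was only weakly related to lactation period (r = -0.089, rho = -0.105), so these counts are no test of cell makeup. The share of all genes in that fit is not given.

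Among members with at least 10 counts in every cow, the lowest p of those that rose belonged to ZNF326, ZNF292, ZNF207, ZNF200 and ZNF143. ZNF326 was at 38.9, 52.2 and 64.2 CPM in the early cows and at 46.9, 75.6 and 95.8 CPM in the late cows. ZNF292, a large transcription factor, was at 11.8, 70.5 and 97.5 CPM in the early and at 35.0, 143 and 235 CPM in the late cows. ZNF143, an activator of snRNA promoters that also marks chromatin loop anchors, was at 12.1, 24.6 and 35.5 CPM in the early and at 20.4, 32.7 and 81.9 CPM in the late cows. In each gene the late cows reached higher, the lowest early cow lay below every late cow, and the upper part of the early range overlapped the lower part of the late range.

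The slopes per 100 days were 0.32 ± 0.08 (SE) for ZNF326, 0.88 ± 0.24 for ZNF292, 0.32 ± 0.10 for ZNF207, 0.58 ± 0.20 for ZNF200 and 0.43 ± 0.15 for ZNF143, with adjusted p from 0.125 to 0.135 in the regression over all genes. Pearson's r of ZNF326 was 0.660 (permutation p = 0.0016) and rho 0.643 (permutation p = 0.00238), and r of ZNF292 was 0.648 (permutation p = 0.00104) and rho 0.712 (permutation p = 0.00044). All 5 kept an unadjusted p under 0.05 in each of the 21 fits without 1 cow, and r was positive in HY and in LY for each. Within the early cows alone r was 0.391 for ZNF326 and -0.0095 for ZNF292, and within the late cows 0.188 and 0.369, so most of each relation lay between the 2 stretches. In the 16 cows of lower mapping rate r was 0.773 and 0.688. ZNF498 had the lowest p of all (r = 0.666), but with 0 counts in 5 cows and a mean of 0.351 CPM, and it is named here after its values were seen.

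The members that fell with lactation period were ZNF511, ZNF622, ZNF706, ZNF18, ZNF593, ZNF524 and ZNF771. ZNF511 was at 11.7, 13.4 and 24.2 CPM in the early cows and at 6.34, 7.81 and 16.5 CPM in the late cows. ZNF622 was at 24.2, 32.6 and 54.0 CPM in the early and at 19.5, 25.1 and 40.3 CPM in the late cows. Both were lower in most late cows, with LY cow 7643 the highest of them in each gene. The slopes per 100 days were -0.41 ± 0.12 (SE) and -0.30 ± 0.09, with r of -0.629 (permutation p = 0.00272; rho = -0.583, permutation p = 0.00622) and -0.598 (permutation p = 0.00485; rho = -0.579, permutation p = 0.00676). Both calls stood in all 21 fits without 1 cow. ZNF622 kept its direction within the early (r = -0.675) and within the late cows (-0.412), as ZNF511 did more weakly (-0.290 and -0.093). ZNF593, which like ZNF622 acts in ribosome assembly, was at 2.65, 4.26 and 15.6 CPM in the early and at 1.16, 2.75 and 8.71 CPM in the late cows.

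ZNF524 and ZNF771 were not followed through the fits without 1 cow. Of the other 5, 3 lost their call in some of these fits. ZNF706 lost it without LY cow 2893 or 7643 or HY cow 3075, 3262 or 3280. ZNF18 lost it without LY cow 2864, 2893 or 3272 or HY cow 3262. ZNF593 lost it without LY cow 2864, 2893, 3272 or 7628 or HY cow 3014, 3262 or 3280. A test of whether the slope on lactation period differed between HY and LY (edgeR, interaction term) gave 3 of 175 members and 322 of 12333 genes an unadjusted p under 0.05, and 0 members passed adjustment (lowest adjusted p 1). ZNF642 had r = -0.355 with lactation period (permutation p = 0.114; rho = -0.316, permutation p = 0.163), on the side of the members that fell but not past the threshold.

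**Figure D4:**
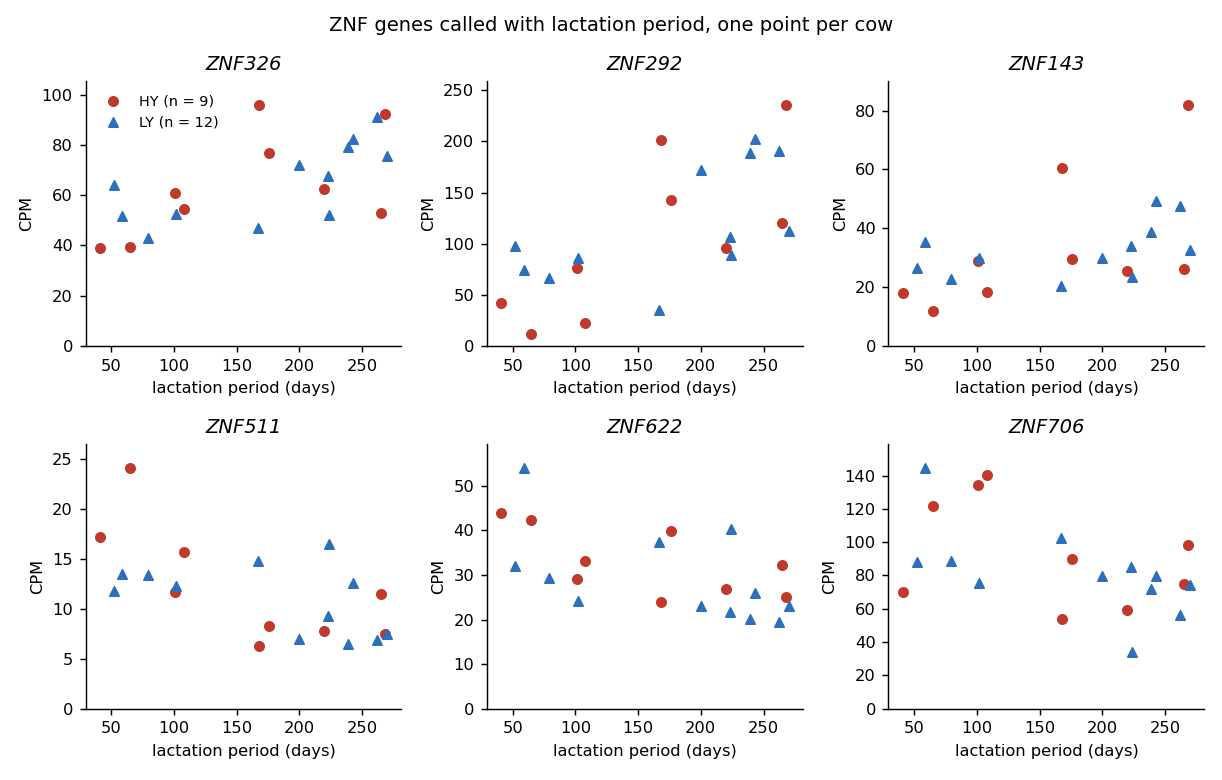
CPM (TMM-scaled, axes from 0) against lactation period in days for 3 ZNF genes that rose and 3 that fell, 1 point per cow (HY circles, n = 9; LY triangles, n = 12). ZNF326, ZNF292 and ZNF143 reached 95.8, 235 and 81.9 CPM in late cows, and the gap between 108 and 167 days holds no cow.

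With parity, 8 members fell (4.57% against 2.87% of all genes) and 4 rose (2.29% against 1.88%), and 0 passed adjustment (lowest adjusted p 0.793). None of the 8 that fell had at least 10 counts in every cow, whereas 3 of the 4 that rose did. The 3 were ZNF304, ZNF143 and ZNF582. ZNF304, a KRAB zinc finger protein, was at 4.81, 7.87 and 16.3 CPM in the 14 cows of parity 2 and at 6.65, 11.1 and 19.3 CPM in the 7 cows of parity 3 and 4. The ranges overlapped, and the slope was 0.42 ± 0.13 (SE) per lactation (r = 0.606, permutation p = 0.004; rho = 0.596, permutation p = 0.00488), with an adjusted p of 0.959. It held in all 21 fits without 1 cow and in the 16 cows of lower mapping rate (r = 0.601). ZNF143 (r = 0.487, permutation p = 0.0251; rho = 0.541, permutation p = 0.0126) lost the call without HY cow 2920. ZNF582 (r = 0.448, permutation p = 0.0427; rho = 0.401, permutation p = 0.072) lost it without LY cow 2864, 2893 or 3161 or HY cow 3014, 3057 or 3280.

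Among those that fell, ZNF787 had the largest r (-0.709), and it is named here after its values were seen. It was at 0.461, 1.29 and 3.68 CPM in parity 2 and at 0, 0.459 and 1.52 CPM in parity 3 and 4, with 0 to 82 counts per cow. The only cow without a count was LY cow 2893, of parity 4. The share of members with a negative slope on parity was 56.6% beside 58.1% of all genes. It turned to 31.4% without LY cow 2893, where it was 44.8% over all genes, and to 36.1% beside 52.6% with the minimum of 10 counts.

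Of the traits compared, casein share gave the members their lowest p-values, and members went both ways with it. Casein share was taken as the log2 of the percent of a cow's counts on the 4 casein genes, so a slope is per doubling, and as it comes from the same libraries the relation describes their makeup. With casein share 26 members fell (14.9% against 17.2% of all genes) and 25 rose (14.3% against 13.3%) at an unadjusted p under 0.05. After adjustment 9 fell (5.14% against 9.32%) and 11 rose (6.29% against 8.79%), so both shares lay below those of all genes. Of the 25 that rose, 21 had at least 10 counts in every cow, and of the 26 that fell 13 had. The count of 51 dropped to 31 without LY cow 7643, and to 25 in the 16 cows of lower mapping rate, where 2 members passed adjustment. edgeR called 26 higher and 23 lower, and the minimum of 10 counts 21 higher and 11 lower. These counts, and those of 31 and 25, are given without the share of all genes in the same fit. Neither an excess nor a lack of members can be read from them. In the main fit 54.2% of the 83 members above this minimum had a negative r with casein share, beside 56.3% of the 7146 genes above it.

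The 11 members that rose after adjustment were ZNF750, ZNF330, ZNF32, ZNF547, ZNF572, ZNF75D, ZNF238, ZNF527, ZNF181, ZNF639 and ZNF582. ZNF750, a transcription factor of epithelial differentiation, is named outside the rule on counts. It was at 0.141, 0.449 and 0.739 CPM in the 9 cows with a casein share of up to 4.34% and at 0.744, 2.86 and 5.84 CPM in the 12 cows with 9.06% or more. These ranges did not overlap, at 2 to 15 counts per cow against 11 to 58. The slope was 0.36 ± 0.06 (SE) per doubling of casein share (adjusted p = 0.000292), with r = 0.818 and rho = 0.839, both at the smallest permutation p that 100000 permutations can give, 1e-05. It was 0.863 in HY, 0.758 in LY and 0.850 in the 16 cows of lower mapping rate.

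ZNF330 was at 11.9, 18.6 and 42.5 CPM in the 9 cows of low casein share and at 21.6, 32.6 and 83.5 CPM in the other 12. ZNF75D was at 28.9, 40.3 and 52.8 CPM in the former and at 46.6, 62.6 and 229 CPM in the latter. HY cow 3280 held the highest value of both genes, and the ranges overlapped. The slopes were 0.18 ± 0.04 (SE) for ZNF330 (adjusted p = 0.00368) and 0.16 ± 0.04 for ZNF75D (adjusted p = 0.0185). Pearson's r was 0.727 (permutation p = 0.00012) and 0.633 (permutation p = 0.00238), and rho 0.757 (permutation p = 0.0001) and 0.817 (permutation p = 2e-05). Without HY cows 3262 and 3280 r was 0.712 and 0.636. ZNF32, ZNF547 and ZNF572 had r of 0.675, 0.657 and 0.640, with adjusted p from 0.01 to 0.0168, and kept a p under 0.05 in all 21 fits without 1 cow.

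The 9 members that fell after adjustment were ZNF821, ZNF335, ZNF628, ZNF574, ZNF385A, ZNF592, ZNF8, ZNF687 and ZNF746. ZNF335 is a component of a histone H3K4 methyltransferase complex. It was at 12.2, 21.0 and 61.1 CPM in the 9 cows of low casein share and at 6.27, 14.5 and 29.6 CPM in the other 12. ZNF385A was at 25.9, 34.4 and 43.0 CPM in the former and at 4.52, 20.7 and 30.1 CPM in the latter. The ranges overlapped for both, and HY cow 3280 was the lowest for ZNF385A. The slopes were -0.15 ± 0.04 (SE) for ZNF335 (adjusted p = 0.0159) and -0.19 ± 0.05 for ZNF385A (adjusted p = 0.0225), with r of -0.644 (permutation p = 0.00094) and -0.619 (permutation p = 0.00358) and rho of -0.612 (permutation p = 0.00371) and -0.853 (permutation p = 1e-05). ZNF821 had r = -0.675 (permutation p = 0.00094) and rho = -0.532 (permutation p = 0.0145), with 5.72 to 14.3 CPM in the former and 4.56 to 8.34 CPM in the latter cows.

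The mean z scores of the marker lists are given beside these members, which were chosen by casein share. Since the epithelial list holds the 4 caseins (r = 0.932 with casein share), that choice largely set the signs of r with it. All 11 that rose had a positive r with the epithelial markers (0.412 to 0.871) and a negative one with the macrophage markers (-0.847 to -0.349). All 9 that fell had a negative r with the epithelial markers (-0.650 to -0.433) and a positive one with neutrophil (0.249 to 0.719), macrophage (0.244 to 0.830) and T cell markers (0.0267 to 0.614). Casein share itself had r of -0.694 with the macrophage list and -0.328 with the neutrophil list. How far cell makeup accounts for the members' relations was not tested. Of the 6 members called with milk yield in the simple regression, ZNF642, ZNF277 and ZNF197 also rose with casein share at an unadjusted p under 0.05. Over all genes 13.3% rose with casein share. The same overlap over all genes called with milk yield is not given. ZNF642 had r = 0.527 (permutation p = 0.0144; rho = 0.555, permutation p = 0.0104) and an adjusted p of 0.0677, and milk yield and casein share had r of -0.281 with each other. With casein share as a covariate of milk yield, 7 members fell and 2 rose. The share of all genes in that fit is not given, so neither an excess nor a lack of members can be read from these counts.

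**Figure D5:**
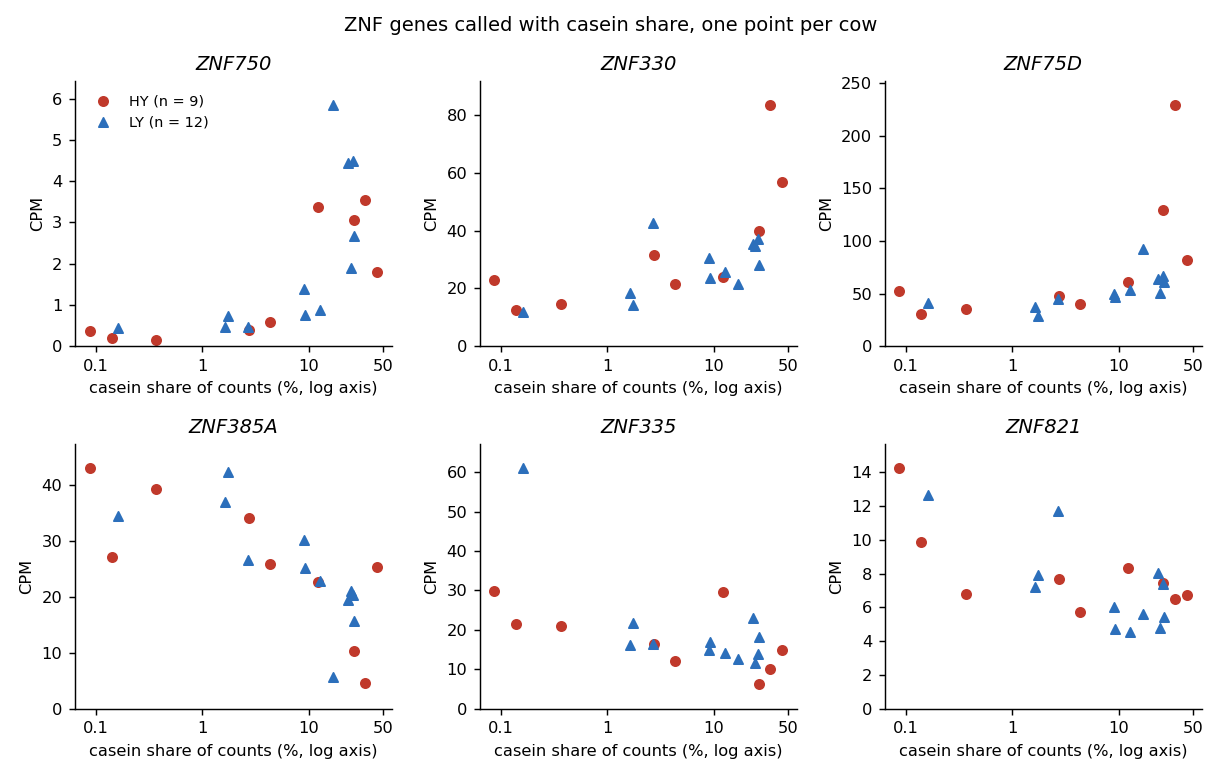
CPM (TMM-scaled, axes from 0) against the casein share of counts in percent (log axis) for 3 ZNF genes that rose and 3 that fell, 1 point per cow (HY circles, n = 9; LY triangles, n = 12). ZNF750 stayed at or under 0.739 CPM up to a casein share of 4.34% and lay above it in all 12 other cows.

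Of 20 genes listed as partners of KRAB zinc finger proteins, 16 were tested. With milk yield 0 of the 16 passed an unadjusted p under 0.05, the closest being CHD4. With lactation period SETDB1 (r = 0.448), HDAC2 (0.525) and ATF7IP, a partner of SETDB1 (0.675), rose and 0 fell, beside 10.5% and 9.88% of all genes. With casein share 5 of 16 fell and 1 rose, beside 17.2% and 13.3% of all genes, and after adjustment 3 fell, beside 9.32%. These were TRIM28 (r = -0.577, adjusted p = 0.0385), CHD4 (-0.698, adjusted p = 0.00668) and MORC2 (-0.674, adjusted p = 0.0101). TRIM28 was at 31.1, 46.3 and 78.8 CPM in the 9 cows of low casein share and at 9.16, 35.7 and 45.3 CPM in the other 12, so the ranges overlapped with LY cow 2893 the lowest.

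Of 22 ZBTB, 7 ZFP, 6 ZSCAN and 2 ZKSCAN genes tested, 0 had an unadjusted p under 0.05 in the simple regression, and the median r was 0.025, -0.028, 0.044 and -0.028. Among classes whose names mark other zinc-binding domains, 1 of 5 ZMYND genes fell with milk yield, ZMYND17 (r = -0.553, p = 0.00939), while 0 of 3 ZNHIT and 0 of 16 ZDHHC genes were called. With lactation period 4 of 22 ZBTB genes rose, among them ZBTB11 (r = 0.621) and ZBTB1 (0.505), and 0 fell, beside 10.5% and 9.88% of all genes. ZKSCAN1 rose (0.552) and ZSCAN21 fell (-0.517). The slope on lactation period was negative for 3 of the 22 ZBTB genes and for 53 of the 175 ZNF genes, beside 43.7% of all genes.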

How the data were processed

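Milk somatic cell RNA of 21 Holstein cows was sequenced on the Illumina HiSeq platform. The authors trimmed the reads with Trimmomatic, aligned them to BosTau7 by TopHat2, which ran Bowtie2, and used HTSeq to count reads per gene. The deposited values are raw counts per gene and cow, without normalization, and versions are not given in the sources used here. Reads on a row that named no gene, up to 0.151% of a cow's total, were left out.

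Counts were scaled with TMM in edgeR 4.0.16 (R 4.3.3). Log2(CPM + 0.25) of each of the 12333 genes with a count was regressed on milk yield (alone, and with parity and lactation period), lactation period, parity and log2 casein share, with numpy 2.4.6 and scipy 1.17.1. HY and LY were compared by edgeR's quasi-likelihood test, with DESeq2 1.42.0 as an alternative. Tests were two-sided, and p-values were adjusted by Benjamini-Hochberg over all genes. Permutation p-values used 100000 draws. Correlations of library measures, marker lists and family summaries are descriptions without p. Both tests were checked on simulated data.

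The members and lists were chosen with earlier results of these data known. Named were ZNF642, members with an unadjusted p under 0.05 for milk yield, and, for the other traits, the 5 lowest p per direction with at least 10 counts in every cow (no minimum for HY against LY), besides the 5 highest and 3 lowest mean CPM. Other called members were listed by name after their values were seen. The alternatives without HY cows 3262 and 3280 and with casein share as a covariate of lactation period were chosen after seeing the data. Intervals of counting error were not used, since each value rests on the spread between cows.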

Additional observations from a re-analysis of the deposited data

Results flagged for a closer look

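In the 9 HY cows, Dixon's test of the highest against the other values was run on the named members, 32 tests in all, of which chance flags about 1 in 20. It marked 2 members whose counts were 0 in all other HY cows. ZNF423 was at 0.098 CPM in HY cow 2814, which rests on 2 counts. ZNF474 was at 0.0703 CPM in HY cow 3057, which rests on 1 count.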

How the results depend on the processing

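Each count of members with an unadjusted p under 0.05 was recomputed under the alternatives. These counts are of members alone. Without the share of all genes under the same alternative, neither an excess nor a lack of members can be read from them. Where a count changed, the cause was not tested, but fewer members were tested under the minimum of 10 counts in every cow. That minimum gave 3 members instead of 6 for milk yield alone, 4 instead of 8 with parity and lactation period, 15 instead of 35 for lactation period, 6 instead of 12 for parity and 32 instead of 51 for casein share. Without HY cows 3262 and 3280 the counts were 13 for milk yield alone and 17 for lactation period. The 16 cows of lower mapping rate gave 4 for milk yield with covariates and 25 for casein share. DESeq2 gave 5 instead of 3 between HY and LY, and edgeR 20 for lactation period. Leaving out 1 cow at a time gave 3 to 9 for milk yield alone, 2 to 12 with covariates, 1 to 7 between HY and LY, 19 to 45 for lactation period, 10 to 18 for parity and 31 to 57 for casein share. The median z score over the 83 members instead of the 175 changed r from 0.394 to 0.172 with lactation period, and turned its sign with parity (-0.030 to 0.253) and with casein share (-0.144 to 0.212). The other alternatives left each count within 1.5 times its value. Over the named members, 855 recomputed values kept direction and side of the threshold, 79 kept the direction only, and 0 turned. DESeq2 size factors shifted single cows by -0.11 to 0.09 on the log2 scale, and casein-free scaling by -0.09 to 0.14. No paired analysis was possible because every library is a different cow and the labels pair none of them. Members with 0 counts in some cows are limited by depth, and their slopes depend on the pseudocount.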
